A study of Rattus norvegicus with 6 samples.

Results

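Serpin, coagulation and complement genes were described in 2 kinds of mural cell freshly isolated from the rat cortex. They were chosen by gene symbol, as serpins (Serpin followed by a clade letter), numbered or named coagulation factors, plasminogen activators and their receptor, tissue factor pathway inhibitors, thrombomodulin, the protein C receptor, protein S, and the complement components and regulators of the classical, lectin and alternative pathways. The rule found 45 genes of the 14607 in the table. These carried 43 symbols, because C4a and Cfb were each listed under 2 gene identifiers, and 15 of the symbols were serpins. The authors listed a gene only when it had at least 1 read in each sample, so the 45 are the ones that passed this filter. Related genes outside the rule were taken from lists and are given after the genes they belong with, and prothrombin was not analysed here.

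Messenger RNA was measured by RNA-Seq in 6 samples, 3 of vascular smooth muscle cells (VSMCs) and 3 of mid-capillary pericytes (mcPCs), from 3 isolations. All came from the cortex of male Sprague-Dawley rats aged 4 to 5 weeks, and the cortices of several rats were pooled for each isolation. VSMCs came from arterioles held back on a filter after a mild digestion of the cortex. Only these arterioles had a second, harsher digestion, with Liberase TM and trypsin, so its effects and those of cell type cannot be told apart. VSMCs were sorted positively with the lectin GSA-FITC after cells bearing CD31 (endothelial) or CD11b (microglia and macrophages) had been removed. mcPCs came from the filtrate and were what remained after removal of cells bearing CD31, CD11b, GLAST (astrocytes) or O4 (oligodendrocytes), so no label selected them positively. The table gives 1 mean for each cell type and no values per sample. Its standard errors and p-values belong to the authors' own comparison and were not used. The means are therefore given without a spread between isolations and without a test of the difference between the cell types, and "higher" means a ratio of at least 2-fold between the authors' mean normalized counts, with 1 count added to each mean.

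Serpins are inhibitors that trap a protease by being cut by it. Many of them restrain the cascades that run in blood and on vessel walls. Coagulation turns prothrombin into thrombin, starting from tissue factor on cells around the vessel, and is limited by tissue factor pathway inhibitor, antithrombin, and the thrombomodulin and protein C system. Fibrinolysis turns plasminogen into plasmin through the urokinase and tissue-type activators, which serpins hold in check. Complement tags surfaces through C1, C4, C2 and C3, and C1 inhibitor and clusterin are among the proteins that limit it. Tissue factor in the perivascular sheath is known as part of the haemostatic envelope of brain vessels.

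As a check of the labels, the 10 VSMC markers were all higher in VSMCs, with a median log2 ratio of mcPC over VSMC of -7.63. The 10 mcPC markers were all higher in mcPCs, with a median of 6.53. Some of these pericyte markers were singled out by the study on the same samples and are not independent evidence. Markers of other cells were also higher in mcPCs. This held for 12 of 17 endothelial markers (median 3.97), 9 of 11 microglia or macrophage markers (5.35), 5 of 6 markers of other leukocytes (5.42) and 13 of 13 erythrocyte markers (8.08). It also held for 7 of 11 fibroblast, 1 of 2 platelet, 5 of 7 astrocyte, 6 of 6 neuron and 6 of 7 oligodendrocyte markers. Over all genes the share was 21.6%, and over genes under 0.8 TPM in VSMCs it was 65.7%. Many of these markers were under that level, among them all neuron markers but Gad1. Of 7 markers shared by mural cells, 3 were higher in mcPCs and 2 in VSMCs. Transcripts of 16 erythrocyte genes made up 66.6% of mcPC TPM (transcript abundance per length, scaled to the same sum in each sample) and 0.870% of VSMC TPM. The TPM of every other gene is lowered by this share in mcPCs, and the median gene stood at 3.59 TPM in mcPCs against 12.7 TPM in VSMCs. Cell types were therefore compared by normalized counts, whose median log2 ratio over all genes was 0.01, and genes were compared with each other within a cell type by TPM. In bulk RNA, fewer cells of a type and less RNA per cell cannot be told apart.

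The stretches just upstream of 4 genes are shown as examples in both directions from the plasminogen activation system and its inhibitors and from the Tfpi family. Plau and Tfpi2 were higher in VSMCs, and Serpine2 and Plaur in mcPCs. Each is the 250 bases before the RefSeq gene start in GRCr8, a newer build than the Rnor_6.0 transcripts used for counting. Capitals mark AP-1 (TGANTCA) and GC box (GGGCGG) letters on either strand, and overlapping matches were each counted.
Plau, chr15:3511988-3512237, minus strand: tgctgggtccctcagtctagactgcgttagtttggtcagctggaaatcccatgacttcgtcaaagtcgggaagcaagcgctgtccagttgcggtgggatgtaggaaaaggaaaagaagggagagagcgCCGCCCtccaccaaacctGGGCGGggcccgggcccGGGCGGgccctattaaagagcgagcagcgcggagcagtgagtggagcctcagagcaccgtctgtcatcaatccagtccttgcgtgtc
Tfpi2, chr4:32941277-32941526, minus strand: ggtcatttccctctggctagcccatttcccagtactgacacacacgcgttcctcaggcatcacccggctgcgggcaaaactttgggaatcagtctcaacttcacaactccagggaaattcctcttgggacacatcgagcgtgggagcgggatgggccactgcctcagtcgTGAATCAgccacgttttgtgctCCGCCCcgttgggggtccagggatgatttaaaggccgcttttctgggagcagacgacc
Serpine2, chr9:88637203-88637452, minus strand: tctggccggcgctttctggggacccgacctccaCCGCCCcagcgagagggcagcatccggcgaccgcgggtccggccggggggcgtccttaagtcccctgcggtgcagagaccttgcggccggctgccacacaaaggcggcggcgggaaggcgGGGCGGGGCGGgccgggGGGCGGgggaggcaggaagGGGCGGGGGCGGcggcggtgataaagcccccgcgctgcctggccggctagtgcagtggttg
Plaur, chr1:89181113-89181362, plus strand: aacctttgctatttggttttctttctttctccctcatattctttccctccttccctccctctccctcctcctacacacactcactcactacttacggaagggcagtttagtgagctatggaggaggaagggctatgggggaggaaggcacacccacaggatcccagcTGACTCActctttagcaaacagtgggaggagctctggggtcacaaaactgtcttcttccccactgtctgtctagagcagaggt
GC box letters occurred 6 times before Serpine2, 3 times before Plau and 1 time before Tfpi2, and were not in the Plaur window. AP-1 letters occurred 1 time each before Tfpi2 and Plaur. RefSeq entries were matched by gene ID for 27 of the genes, which had 29 start sites in all. Of these 27 genes, 9 held the GC box. By window it was in 10 of the 29, against 30.5% of all 33469 RefSeq windows of the same length. AP-1 letters were in 3 of the 29 windows (Plaur, Procr and Tfpi2), against 6.34% of all windows. The TATA box letters TATAAA, on either strand, were in 1 of the 29 (Serpinb1a), against 12.9%. The CArG box, the serum response element known from smooth muscle genes, was in 0, against 1.5%. Thus both of the VSMC-high genes and 1 of the 2 mcPC-high genes shown held the GC box. These matches describe letters only.

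Of the 45, 28 (62.2%) were higher in mcPCs by 2-fold or more, as were 21.6% of all genes. In the other direction, 8 (17.8%) were higher in VSMCs, against 13.8% of all genes. At 4-fold the counts were 16 in mcPCs (35.6%, against 12% of all genes) and 4 in VSMCs (8.89%, against 5.64%). The median log2 ratio of the 45 genes was 1.41. The study discarded genes under 0.8 TPM in VSMCs, after finding endothelial transcripts more abundant in mcPCs. The genes at or above this level gave a more even split. Of these 27 genes, 11 were higher in mcPCs (40.7%, background 13%) and 8 in VSMCs (29.6%, background 15.7%). Of the 18 genes under 0.8 TPM in VSMCs, 17 were higher in mcPCs (94.4%, background 65.7%) and 0 in VSMCs (background 3.81%). Choosing genes by a low VSMC level favours ratios towards mcPCs, and 65.7% of all genes so chosen were higher there. The part of RNA from other cells in this share was not tested.

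**Figure D1:**
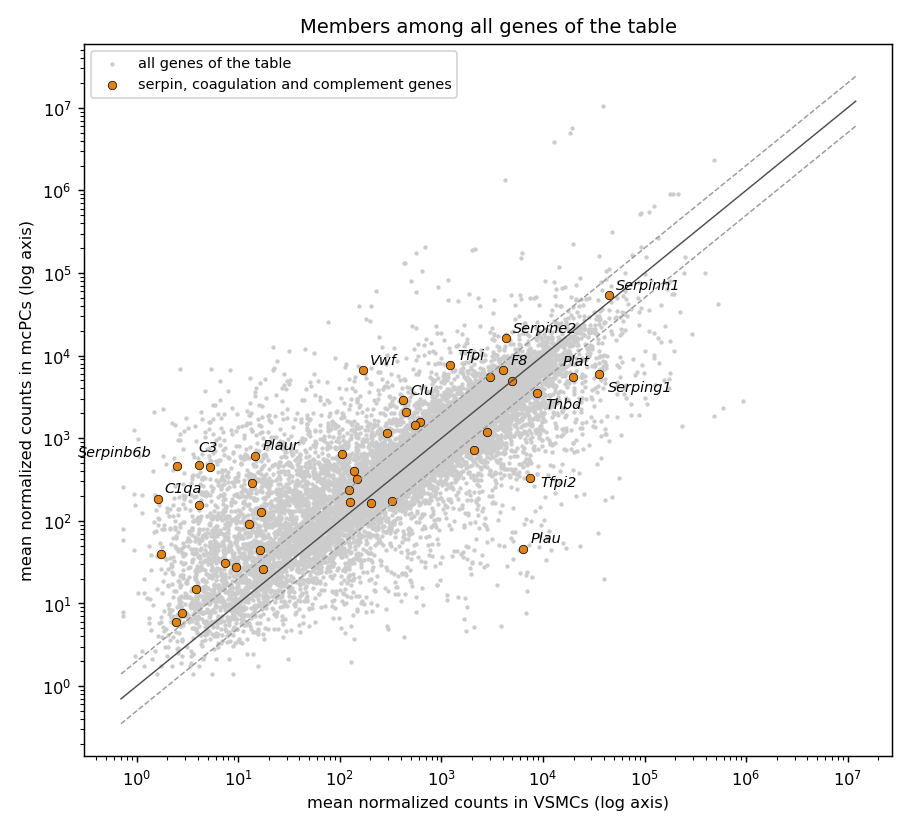
Mean normalized counts of each gene in VSMCs (x, log axis) and mcPCs (y, log axis), for all 14607 genes (grey) and 43 of the genes described here (orange). The solid line marks equal means and the dashed lines 2-fold. Plau and Tfpi2 lie far below the lines at the right, and a group with few counts in VSMCs, among them C3, C1qa and Serpinb6b, lies far above them at the left.

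The 45 genes added up to 2854 TPM in VSMCs and 673 TPM in mcPCs. Without erythrocyte genes the sums were 2885 and 2022 TPM. A few genes carried most of it. In VSMCs, Serpinh1 and Serping1 made up 56.5% of the summed TPM. In mcPCs, Serpinh1 and Serpine2 made up 57.3%. At the other end, 12 of the 45 stayed under 1 TPM in both cell types.

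**Figure D2:**
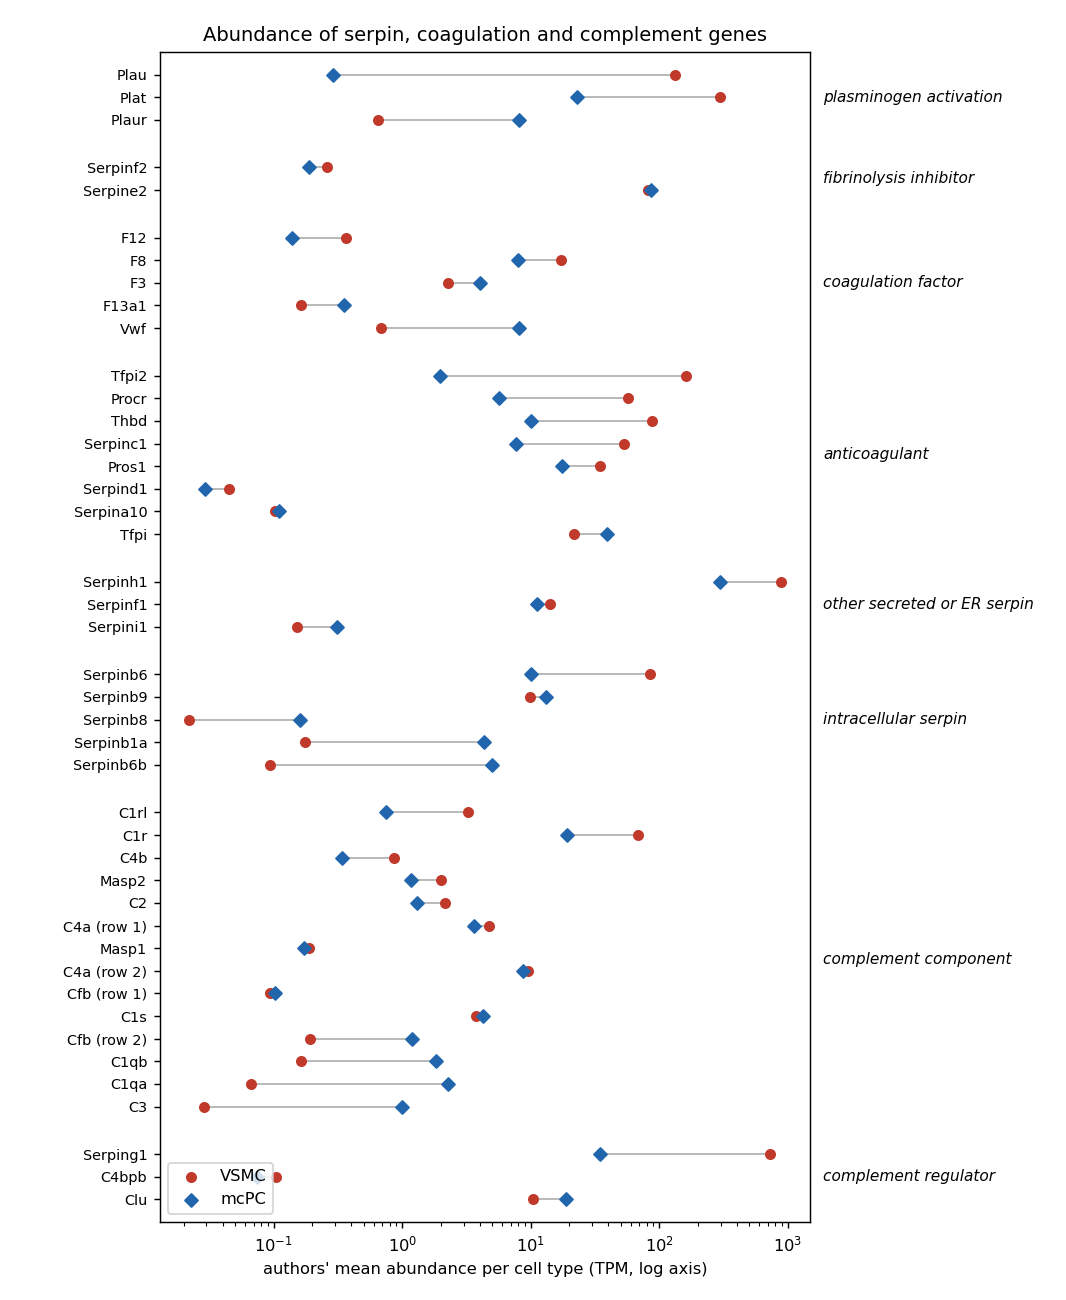
Authors' mean TPM (x, log axis) of 43 of the genes in VSMCs (red circles) and mcPCs (blue diamonds), grouped by role, with a grey line joining the 2 means. Serpinh1 is the most abundant in both cell types, at 879 TPM in VSMCs against 299 in mcPCs. TPM in mcPCs is lowered for every gene by the erythrocyte transcripts.

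The plasminogen activation system was divided between the cell types, with both activators higher in VSMCs and the urokinase receptor higher in mcPCs. Plau, urokinase, had 6365 mean normalized counts in VSMCs and 45.8 in mcPCs, a 136-fold lower mean in mcPCs. The log2 ratio of -7.09 (95% counting interval -7.41 to -6.84) was the lowest of the 45. Only 105 mcPC reads lay behind it, against 26246 VSMC reads. Plat, tissue-type plasminogen activator, stood at 295 TPM in VSMCs against 23.1 in mcPCs, and its normalized counts differed 3.64-fold (log2 ratio -1.87, -1.89 to -1.84). Plaur, the membrane receptor that holds urokinase at the cell surface, went the other way, with 14.7 normalized counts in VSMCs and 618 in mcPCs (log2 ratio 5.30, 5.01 to 5.80). It had 57 VSMC reads and 0.650 TPM there. Of all genes under 0.8 TPM in VSMCs, 65.7% were higher in mcPCs. Within VSMCs Plau transcripts were 203 times as abundant per length as those of Plaur. Within mcPCs Plaur transcripts were 28.1 times as abundant as those of Plau. Plat was the more abundant activator in both, 2.24 times Plau in VSMCs and 80.4 times in mcPCs. The intervals are exact binomial (Clopper-Pearson) intervals for the reads and cover counting error only. Since reads without molecular identifiers are not independent molecules, the true error is larger.

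Serpine2, protease nexin 1, which inhibits thrombin as well as the activators, was 3.78-fold higher in mcPCs (log2 ratio 1.92, 1.89 to 1.94), where it was the second most abundant of the 45 genes at 86.3 TPM. In VSMCs it stood at 81.6 TPM. Serpinf2, the plasmin inhibitor antiplasmin, was under 0.3 TPM in both cell types, with a log2 ratio of 1.37 (0.96 to 1.88). The summed TPM of both activators was 5.24 times that of Serpine2 in VSMCs and 0.271 times in mcPCs. Plau and Plat transcripts together thus exceeded those of Serpine2 in VSMCs and fell short of them in mcPCs, and such a ratio within a cell type does not depend on how TPM are scaled between cell types.

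**Figure D3:**
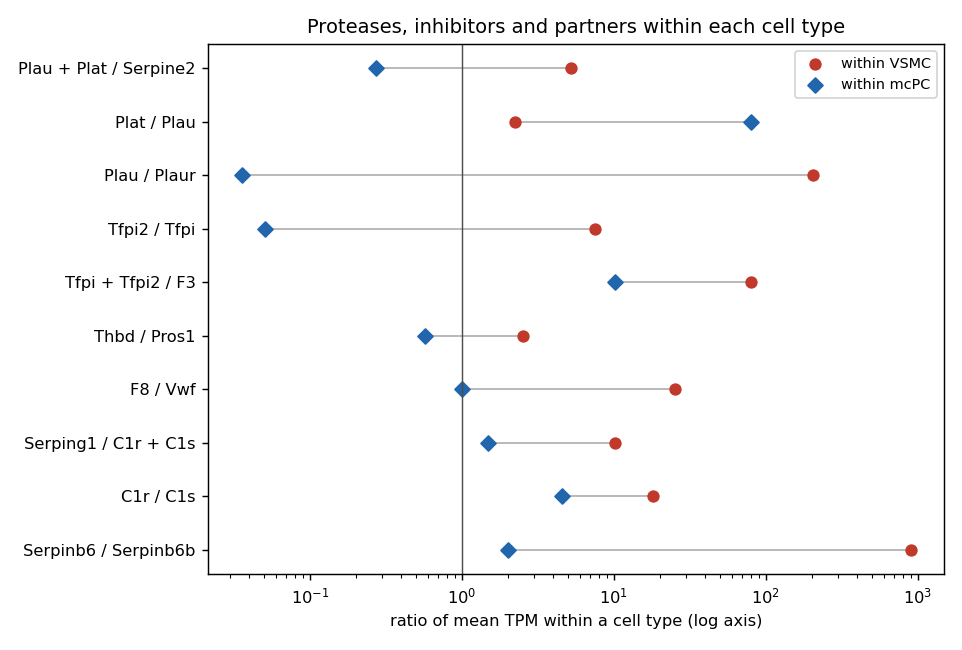
Ratio of mean TPM between genes, or sums of genes, within VSMCs (red circles) and within mcPCs (blue diamonds) on a log axis, with a line at 1. The ratios of both activators to Serpine2, of Plau to Plaur, of Tfpi2 to Tfpi and of Thbd to Pros1 lie on opposite sides of 1 in the 2 cell types. The ratio of F8 to Vwf is 25.4 in VSMCs and barely under 1, at 0.998, in mcPCs.

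Genes around the plasminogen system were read from lists that hold none of the 45. Of 4 plasminogen surface receptors, 1 was higher in mcPCs and 3 were within 2-fold. S100a10, which presents plasminogen at the surface in a complex with annexin A2, had a log2 ratio of 2.67, and its partner Anxa2 0.08. Receptors that clear serpin and protease complexes were split. Of 5 such genes 2 were higher in VSMCs, among them the lipoprotein receptor Vldlr (log2 ratio -2.73), and 2 in mcPCs, Lrp8 (5.80) and the receptor chaperone Lrpap1 (2.14). Lrp1, the large clearance receptor of activator and inhibitor complexes, lay at 0.99, just inside 2-fold. Over all genes, 21.6% were higher in mcPCs and 13.8% in VSMCs. Lrp8 was at only 0.145 TPM in VSMCs, and of all genes under 0.8 TPM there, 65.7% were higher in mcPCs.

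Among coagulation factors, 3 of 5 were higher in mcPCs and 0 in VSMCs, against 21.6% and 13.8% of all genes. Of the 3, Vwf and F13a1 were under 0.8 TPM in VSMCs, where the background was 65.7%. F3, tissue factor, the trigger of coagulation, was 6.04-fold higher in mcPCs, with 106 normalized counts in VSMCs and 646 in mcPCs. Its log2 ratio was 2.59 (2.45 to 2.76). It stood at 2.27 TPM in VSMCs, above 25.1% of all genes, and at 4.01 TPM in mcPCs, above 52.7%. F8, the cofactor factor VIII, was the most abundant factor in VSMCs at 17.2 TPM and stood at 8.02 TPM in mcPCs. Its log2 ratio of 0.71 (0.68 to 0.74) stayed within 2-fold. Vwf, von Willebrand factor, which carries factor VIII and is made by endothelial cells and megakaryocytes, rested on 702 VSMC reads and 14676 mcPC reads (log2 ratio 5.29, 5.19 to 5.41). Within VSMCs F8 was 25.4 times as abundant as Vwf, and within mcPCs the ratio was 0.998. F13a1, the catalytic subunit of the fibrin-crosslinking factor XIII, also made by macrophages, had a log2 ratio of 2.85 (2.53 to 3.30) at 0.163 and 0.353 TPM. F12, factor XII of the contact pathway, was under 0.4 TPM in both and within 2-fold (0.53, 0.02 to 1.08).

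Most genes of the endothelial list were, like Vwf, higher in mcPCs. The 17 genes of this list ranged from -0.78 to 6.28, with 12 higher in mcPCs and 5 within 2-fold. The tight junction gene Cldn5 had 96 VSMC reads and 4066 mcPC reads (log2 ratio 6.28), and the endothelial cadherin Cdh5 0.305 and 1.48 TPM (3.91). The list summed to 800 TPM in VSMCs against 629 in mcPCs, most of it from Esam, Itm2a and Slc2a1. The mcPC sum is lowered by the erythrocyte share, and without erythrocyte genes it was 1888 TPM. The list was written with 20 genes, and the other 3 were not analysed here. The part of endothelial RNA in the Vwf result was not tested.

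The anticoagulant genes contained 2 relatives that differed in opposite directions. Tfpi2, tissue factor pathway inhibitor 2, a matrix-bound inhibitor of plasmin and of the tissue factor complex, was 22.8-fold higher in VSMCs, with 7451 normalized counts there and 326 in mcPCs. Its log2 ratio was -4.51 (-4.62 to -4.41). Tfpi, the inhibitor that blocks factor Xa and the tissue factor complex, was 6.33-fold higher in mcPCs, with 1209 and 7665 normalized counts (2.66, 2.62 to 2.71). Within VSMCs Tfpi2 was 7.46 times as abundant as Tfpi, and within mcPCs Tfpi was 19.7 times as abundant as Tfpi2. Tfpi and F3 kept nearly the same ratio, at 9.48 in VSMCs and 9.75 in mcPCs. Adding Tfpi2, the pair of inhibitors exceeded F3 by 80.2 times in VSMCs and 10.2 times in mcPCs.

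The receptors of the protein C pathway were higher in VSMCs and its soluble cofactor was not. Thbd, thrombomodulin, which turns thrombin into an activator of protein C, had 8677 normalized counts in VSMCs and 3538 in mcPCs (log2 ratio -1.29, -1.33 to -1.26). Procr, the endothelial protein C receptor, had 2093 and 726 (-1.53, -1.61 to -1.45). Both kept their proportion, Thbd over Procr being 1.52 in VSMCs and 1.77 in mcPCs. Pros1, protein S, the cofactor of activated protein C and a ligand of the TAM receptors, had 3026 normalized counts in VSMCs and 5476 in mcPCs. Its log2 ratio of 0.86 (0.82 to 0.89) stayed within 2-fold. In TPM, Thbd was 2.53 times Pros1 in VSMCs and 0.575 times Pros1 in mcPCs. The other TAM ligand, Gas6, was higher in VSMCs (-2.11), as was the receptor Mertk (-2.29), while the receptor Tyro3 was higher in mcPCs (3.47). Axl, the most abundant of the TAM receptors in both, was within 2-fold (-0.34).

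The anticoagulant serpins were low or uncertain. Serpinc1, antithrombin, appeared at 52.8 TPM in VSMCs against 7.68 in mcPCs, but its counted transcripts had a mean effective length of only 200 bases in VSMCs. The VSMC level therefore rested on 1273 reads, against 12823 reads for Pros1, whose TPM was lower. Its log2 ratio was -0.92 (-1.09 to -0.76). Serpind1, heparin cofactor II, and Serpina10, the protein Z-dependent inhibitor, were both near or under 0.1 TPM in both cell types. Serpind1 rested on 10 VSMC and 12 mcPC reads, and its counting interval for the log2 ratio (-0.03 to 2.67) included 0. The 3 protease-activated receptors in the table, through which thrombin and related proteases signal, were all higher in mcPCs, as were 21.6% of all genes. F2r, the main thrombin receptor, stood at 51.0 TPM in VSMCs against 41.6 in mcPCs (log2 ratio 1.52). F2rl1 (3.06) and F2rl3 (2.57) were at or under 1.41 TPM in both, and under 0.8 TPM in VSMCs, where the share was 65.7%.

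**Figure D4:**
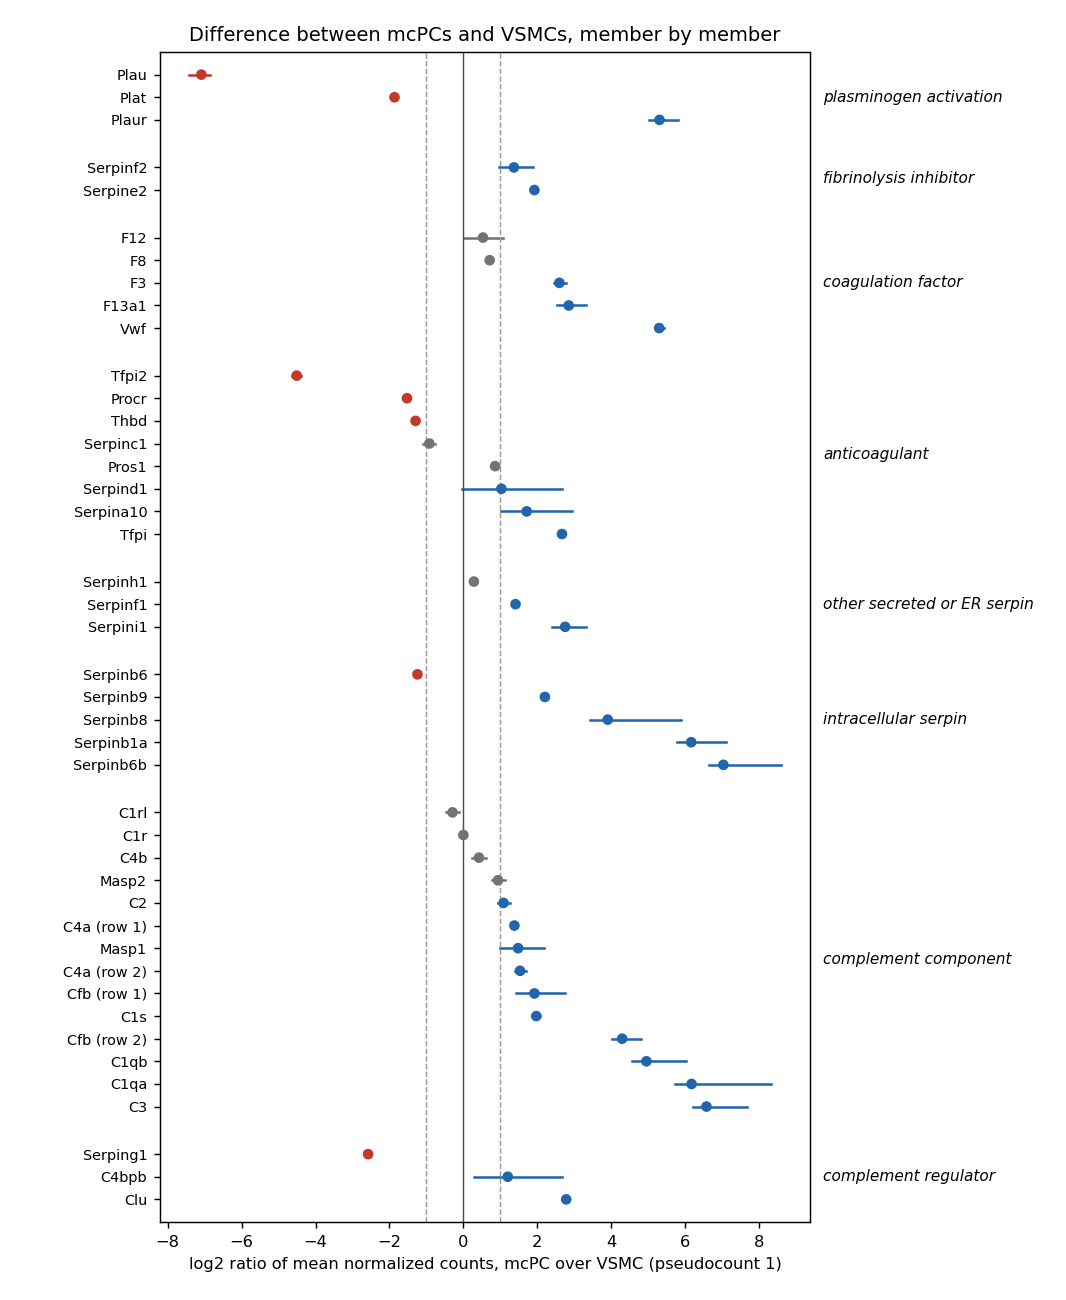
Log2 ratio of mean normalized counts, mcPC over VSMC, of 43 of the genes by role (points), with 95% counting intervals (lines, computed without the pseudocount). Blue marks at least 2-fold higher in mcPCs (27), red in VSMCs (7) and grey neither (9). Intervals are hidden by the points for abundant genes and wide for genes with few VSMC reads, such as Serpinb8, C1qa and Serpinb6b.

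Serpinh1, also called HSP47, is a collagen chaperone of the endoplasmic reticulum and inhibits no protease. It was the most abundant of the 45 genes in both cell types, at 879 and 299 TPM, above 98.8% and 99.2% of all genes. Its log2 ratio was 0.28 (0.27 to 0.29), within 2-fold, and its sign depended on the scale, since it was -0.16 with counts scaled to the same total. Serpinf1, pigment epithelium-derived factor, a secreted serpin without inhibitory activity, was 2.65-fold higher in mcPCs by normalized counts (1.41, 1.33 to 1.49). Its TPM read 14.2 in VSMCs and 11.2 in mcPCs. Serpini1, neuroserpin, an inhibitor of tissue-type plasminogen activator best known from neurons, had a log2 ratio of 2.75 (2.41 to 3.30) at 0.151 and 0.310 TPM.

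Of the 5 intracellular serpins of clade B, 4 were higher in mcPCs (21.6% of all genes) and 1 in VSMCs (13.8%). Serpinb1a, Serpinb6b and Serpinb8 were among the genes under 0.8 TPM in VSMCs, where 65.7% of all genes were higher in mcPCs. Serpinb6, an inhibitor of cathepsin G and other serine proteases, was the VSMC-high one, at 84.6 TPM against 10.1 TPM (log2 ratio -1.24, -1.31 to -1.18). Its paralog Serpinb6b had the highest log2 ratio of the 45, 7.03 (6.63 to 8.58), with 10 VSMC reads and 1031 mcPC reads. In TPM, Serpinb6 exceeded Serpinb6b by 901 times in VSMCs, whereas in mcPCs they stood at 10.1 and 5.04 TPM. Reads of such close paralogs could be shared between them, so both values are uncertain. Serpinb1a, the inhibitor of neutrophil elastase, had 21 VSMC reads and 977 mcPC reads (6.16, 5.78 to 7.10). Serpinb9, which protects cells from granzyme B, was found at a moderate level in both, 9.89 and 13.2 TPM, with a log2 ratio of 2.20 (2.13 to 2.28). Serpinb8 was under 0.2 TPM in both (3.90).

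Of the 14 complement component rows, 10 were higher in mcPCs and 0 in VSMCs, against 21.6% and 13.8% of all genes. Of the 10, 6 were under 0.8 TPM in VSMCs, a level at which 65.7% of all genes were higher in mcPCs. The rows divided by level. C1r, the protease of the C1 complex that activates C1s, was the most abundant in both cell types at 68.7 and 19.3 TPM and had a log2 ratio of -0.00 (-0.04 to 0.03). C1s, its substrate and partner, was 3.91-fold higher in mcPCs (1.97, 1.87 to 2.07), so C1r over C1s was 18.2 in VSMCs and 4.54 in mcPCs. The chains of C1q, the recognition molecule that brain macrophages and microglia make, were under 0.2 TPM in VSMCs. C1qa had 6 VSMC reads and 416 mcPC reads (6.17, 5.73 to 8.31). C1qb had 18 and 345 reads (4.95, 4.57 to 6.02). C1r was 299 times as abundant as C1qa and C1qb together in VSMCs and 4.67 times in mcPCs.

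C3, the central component of all pathways, was near the floor of the table in VSMCs at 17 reads and 0.0288 TPM and stood at 0.994 TPM in mcPCs (log2 ratio 6.57, 6.20 to 7.67). Cfb, the alternative pathway protease factor B, was listed in 2 rows, ENSRNOG00000051158 (4.29, 4.01 to 4.81) and ENSRNOG00000000419 (1.92, 1.41 to 2.74). Summed, they had a log2 ratio of 3.85. C4a and C4b, near-identical copies of the component cut by C1s, could share reads, and their 3 rows ranged from 0.42 to 1.53. Summed, C4a and C4b stood at 15.1 TPM in VSMCs against 12.6 in mcPCs, with a log2 ratio of 1.30. These TPM sums are uncertain. The C4a row ENSRNOG00000047657 had a mean effective length of only 496 bases in VSMCs. It gave 9.52 TPM there from 591 of the 3711 reads. C2, the protease that pairs with C4, had a log2 ratio of 1.08 (0.93 to 1.25), and C1rl, a C1r-like protease, -0.30. The lectin pathway proteases were low. Masp2 (0.93) lay within 2-fold and Masp1 (1.48) rested on 38 VSMC reads.

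Most genes of the macrophage and leukocyte lists were, like the components that were lowest in VSMCs, higher in mcPCs. Microglia or macrophage markers summed to 66.1 TPM in VSMCs against 235 in mcPCs, and their log2 ratios ran from -1.99 (Cd14) to 10.87 (Laptm5). The pan-leukocyte gene Ptprc had 0.0659 TPM in VSMCs against 15.1 in mcPCs (9.50), the macrophage receptor Csf1r a ratio of 6.85 and lysozyme Lyz2 9.10. The list of other leukocytes summed to 1.79 and 32.4 TPM and included Cd8a (9.34) and the granule gene Prf1 (7.32). The microglial markers Cx3cr1 (4.04) and Tmem119 (2.98) were also higher in mcPCs. They stayed under 1 TPM there, at 0.978 and 0.408 TPM, on a scale lowered by the erythrocyte transcripts. These counts cover 11 of the 20 macrophage and 6 of the 16 other leukocyte markers written down, and the rest were not analysed here. The part of leukocyte RNA in the values of C1qa, C1qb, C3, Cfb, Plaur, F13a1, Serpinb1a and Serpinb6b was not tested.

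**Figure D5:**
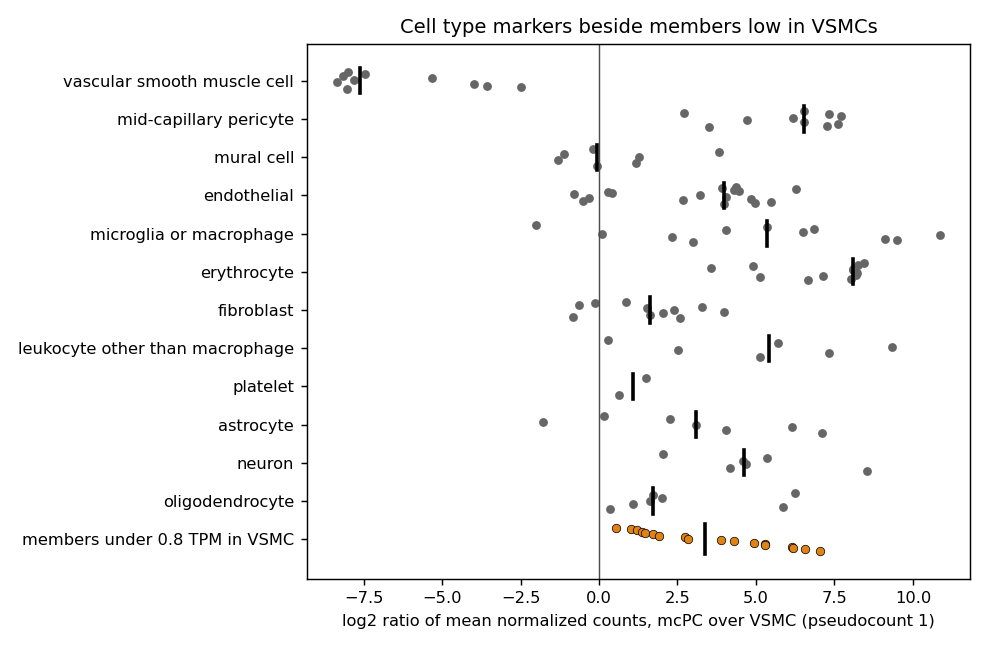
Log2 ratios of mean normalized counts, mcPC over VSMC, of cell type markers (grey points, 1 per gene, with the list median as a bar) and of the 18 genes described here that were under 0.8 TPM in VSMCs (orange, with their median of 3.37). All 2389 genes under 0.8 TPM in VSMCs had a median of 1.78, and the marker lists were not limited by level. The macrophage, other leukocyte and endothelial lists have medians of 5.35, 5.42 and 3.97.

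Of the 4 complement regulators, 3 were higher in mcPCs and 1 in VSMCs, where 21.6% and 13.8% of all genes were, and the most abundant was the VSMC-high one. Serping1, C1 inhibitor, which blocks C1r, C1s and the contact proteases, was the second most abundant of the 45 in VSMCs at 733 TPM and stood at 34.9 TPM in mcPCs. It was 5.97-fold higher in VSMCs by normalized counts (log2 ratio -2.58, -2.60 to -2.55). Its TPM was 10.1 times the sum of C1r and C1s in VSMCs and 1.48 times in mcPCs. Clu, clusterin, which binds the terminal complex, went the other way, with 423 normalized counts in VSMCs and 2903 in mcPCs (2.78, 2.71 to 2.86). C4bpb, a chain of the C4b-binding protein, rested on 12 and 16 reads, a 2.29-fold ratio with a log2 interval from 0.29 to 2.68.

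The complement genes outside the 45 ranged widely. Vtn, vitronectin, which blocks the terminal complex, stood at 484 TPM in VSMCs against 1531 in mcPCs (log2 ratio 3.50). It is also among the pericyte markers above. The terminal component C7 had 28.5 and 48.0 TPM (2.55). The membrane regulator Cd59, the main shield of cells against the terminal pore, was within 2-fold (-0.53) at 188 and 36.5 TPM, whereas Cd55 was under 1 TPM in both (3.95). The scavenger collectin Colec12 stood at 7.63 and 49.5 TPM (4.52), and the leukocyte integrin chain Itgb2 at 0.318 and 9.87 TPM (6.66). Over all 10 lists of related genes, 40 genes in the table were not among the 45. Of these, 18 were higher in mcPCs, 4 in VSMCs and 18 in neither, against 21.6% and 13.8% of all genes for the first 2. The majority of those higher in mcPCs, among them F2rl1, F2rl3, Lrp8, Cd55 and Itgb2, were under 0.8 TPM in VSMCs. At that level 65.7% of all genes were higher in mcPCs.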

How the data were processed

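RNA-Seq reads of 3 VSMC and 3 mcPC samples were trimmed with Eoulsan and quantified by the authors with Salmon 0.8.0 against Rnor_6.0 transcripts of Ensembl, then collapsed to genes with tximport and normalized with DESeq2. The deposited table holds the authors' means per cell type of TPM, of Salmon's estimated counts, of normalized counts (a signal value, counts divided by normalization factors) and of effective length. The log2 fold changes, standard errors and p-values that it also holds are the authors' own comparison and were not used. The estimated counts were multiples of 1/12 within 0.001 for 70.4% of genes in VSMCs and 71.8% in mcPCs, so each mean was multiplied by 12 sequencing runs to give reads. This gave on average 61978061 reads per VSMC sample and 47990230 per mcPC sample. Differential testing needs values per sample and was not run.

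Log2 ratios of mean normalized counts, mcPC over VSMC, were computed with a pseudocount of 1 on each mean (Python 3.11.15, pandas 2.3.3). Such ratios understate differences of genes with few counts. Genes with a ratio of at least 2-fold were counted as higher. The 95% Clopper-Pearson intervals (scipy 1.17.1) were taken on the reads, without the pseudocount, and scaled by each gene's normalization. The interval code was tested on simulated counts. Alternatives were other pseudocounts, TPM ratios, other scalings of the counts and minimum levels. Full values were given for genes reaching 10 TPM in either cell type, or 4-fold with at least 100 reads, which held for 30 of the 45, and others were named where a role had few genes. Of the 45, 2 are not reported here by name and are left out of the plots of single genes, though they enter the counts, sums and medians. The samples were grouped by the cell type in their titles, and the codes DN, DL and DK shared by titles of both cell types were taken as the isolations. The genes, the lists and the ratios between genes were chosen with earlier results of these data known. The promoter sequences come from RefSeq (GRCr8).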

Additional observations from a re-analysis of the deposited data

How the results depend on the processing

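The counts and the median depended on the scale and on the minimum level. With TPM ratios as they stand, which carry the erythrocyte share and put the median of all genes at -1.72, 9 of the 45 passed 2-fold towards mcPCs instead of 28, 14 towards VSMCs instead of 8, and the median of the 45 was -0.16 instead of 1.41. With a minimum of 0.8 TPM in VSMCs, 11 were higher in mcPCs and the median was 0.71. With a minimum of 1 TPM in either cell type, 18 were higher in mcPCs. The median was 1.04 with a pseudocount of 10, 1.55 with TPM relative to the median gene, 1.07 with TPM without erythrocyte genes, 0.94 with counts scaled to the same total and 1.67 with counts scaled without erythrocyte genes. The median of all genes moved to -0.22, -0.55 and 0.18 under the last 3. All 36 genes counted as higher in a cell type kept their direction under every scaling and pseudocount but TPM as it stands, where 28 did and the log2 ratios of C2 (-0.68), both C4a rows (-0.37 and -0.13), C4bpb (-0.23), Masp1 (-0.067), Serpind1 (-0.16), Serpinf1 (-0.34) and Serpinf2 (-0.31) were negative. Under the same setting the genes within 2-fold that had positive ratios were also lower in mcPCs, among them F8 (-1.09), Pros1 (-0.98) and Masp2 (-0.73). With counts scaled to the same total, 29 of the 36 stayed past 2-fold. The whole counting interval lay past 2-fold for 23 genes in mcPCs and 8 in VSMCs.

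No paired analysis was possible because the table holds means per cell type, and for the same reason no replicate was left out. Depth limited the genes with few VSMC reads, and 5 of the 45 had under 100 reads over both cell types together.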
